A study of Monodelphis domestica with 9 samples.

Results

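Integrins are receptors of the cell surface that join the matrix outside a cell to its actin skeleton, and laminins are the chains from which the net of a basement membrane is built. The members described here are the genes of the deposited table whose symbols match the integrin α and β subunits or the laminin α, β and γ chains. There are 33 such genes of 22724 named genes, with 62 of 37421 TSS groups, the transcripts of a gene being grouped there by their start site. They comprise 13 integrin α subunits, 5 integrin β subunits, 12 laminin chains and 3 genes that the symbol pattern also takes in although they are no integrin subunits (ITGB1BP1, ITGB1BP2 and ITGBL1). RefSeq gives 37 symbols of this pattern for the opossum assembly mMonDom1, of which 31 are in the table. ITGA5, ITGA7, ITGB1, ITGB3, ITGB3BP and ITGB7 were not analysed here, so the β subunit by which clasts are usually marked, ITGB3, has no value below.

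RNA was sequenced from grey short-tailed opossums, Monodelphis domestica, at postnatal days 16, 18 and 20, with 3 libraries at each stage and 9 in all. No treatment or genotype separates the groups, and the sources used here give neither strain nor sex. Tissue was cut by laser from cryosections of Meckel's cartilage (MC) and the anterior malleus around the place where they join, with little of the perichondrium by the study's methods. The study's results instead describe MC with its perichondrium just anterior to the malleus, so how much perichondrium was taken is not known. The RNA was amplified before sequencing. By the study's methods MC starts to separate from the malleus at the last of these stages, and the samples were taken to compare gene expression before and at that step.

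The authors deposited 1 mean value per condition in FPKM, a count of fragments corrected for transcript length and library size, and a gene's level below is the sum of these means over its TSS groups. Because all libraries of a condition stand in 1 value, neither the spread over animals nor library depth is known, no test could be made, and no difference below has a replicate check. The codes of the conditions are q1, q2 and q3, and no label pairs a code with a stage, so no order in time is implied. Values of q3 are used for genes whose TSS groups are all listed whatever their size, which holds for 26 of the 33 members and 16614 of all genes. ITGA8, ITGA11, ITGAE, ITGB1BP2, ITGB8, LAMB1 and LAMB4 therefore have values in q1 and q2 only.

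Levels of most genes differed between the conditions in the same direction. Among genes with a mean of at least 1 FPKM over the conditions compared and both values above 0, the median log2 ratio of q2 to q1 was 0.61 over 10337 genes. That of q3 to q1 was 1.96 over 8837 genes, and that of q3 to q2 was 1.33 over 8782 genes. In q3 90.4% of these genes were higher than in q1. A member's log2 ratio is therefore given as it stands and as its distance from this median, negative where the member lies below it. A distance of at least 1 in size counts as past the fold. The comparisons share conditions, q1 standing in both q2 against q1 and q3 against q1, and so are not independent of each other.

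For 12 of the 33 members the listed locus overlaps that of another gene of the table. They are ITGA2, ITGA4, ITGA11, ITGB1BP1, ITGB1BP2, ITGB4, ITGB5, LAMA2, LAMA3, LAMA5, LAMB1 and LAMB3. In each case the other listed loci span the member's whole locus, so how far the transcripts themselves overlap is unknown. The strand setting is not stated, and how reads there were assigned is unknown too.

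An integrin is a pair of an α and a β subunit, and the α subunit largely sets the ligand. Receptors with ITGAV bind proteins with the RGD motif, such as osteopontin and vitronectin, and clasts, the cells that resorb bone and mineralized cartilage, attach with ITGAV and ITGB3. ITGA10 and its relatives ITGA1, ITGA2 and ITGA11 bind collagens, and ITGA10 is known from chondrocytes. A laminin is a trimer of an α, a β and a γ chain, and those of blood vessels hold LAMA4 or LAMA5 with LAMC1. Cartilage itself has no vessels and no continuous basement membrane, whereas the perichondrium, bone and marrow spaces have vessels.

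**Figure D1:**
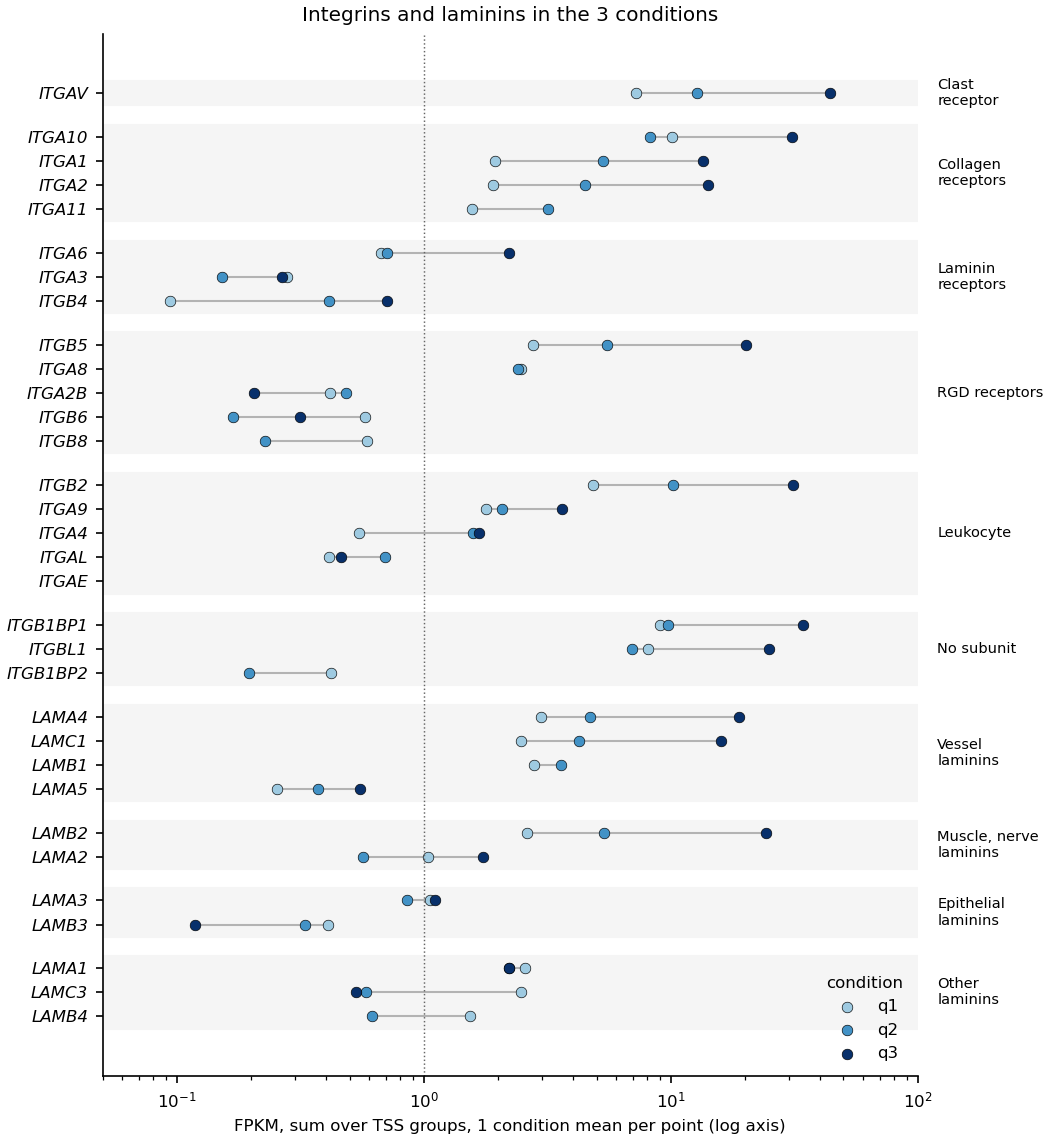
FPKM of the members described (log axis, summed over TSS groups) in q1, q2 and q3, 1 point per condition mean, ordered by role, with a dotted line at 1 FPKM. ITGAE, listed at 0, has no point, and ITGAV reaches 43.9 in q3.

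The most abundant members in q3 were ITGAV, ITGB1BP1, ITGB2, ITGA10, ITGBL1, LAMB2 and ITGB5, from 43.9 down to 20.1 FPKM. In q1 the order was led by ITGA10 at 10.1 FPKM, then ITGB1BP1 at 9.02, ITGBL1 at 8.06 and ITGAV at 7.20. With 1 value per condition it cannot be said which neighbours in these orders differ beyond the spread of the animals. At 1 FPKM or more stood 20 of the 33 members in q1, 17 of the 33 in q2 and 17 of the 26 in q3, and 11 of the 26 stood at 10 FPKM or more in q3. Of the 11 members that stayed under 1 FPKM in every condition listed, 7 are integrin subunits and 3 are laminin chains. In bulk tissue, fewer cells of a type and less RNA per cell cannot be told apart.

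ITGAV (TSS300508, chromosome 4 from 202473483 to 202605249, as the table gives it) had 7.20 FPKM in q1, 12.7 in q2 and 43.9 in q3. It was lowest in q1 and highest in q3, 6.10-fold higher than in q1. That is a log2 ratio of 2.61, at a distance of 0.65 from the median of all genes. From q1 to q2 its ratio of 0.82 lay 0.21 above the median, but at -0.06 when centred on genes of at least 10 FPKM. Its rank among the 16614 genes listed in all conditions was the steadiest of the 26 members with a q3 value, at percentile 92.2 in q1, 92.6 in q2 and 93.5 in q3.

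ITGB5, a β subunit that pairs with ITGAV, had 2.75 FPKM in q1, 5.53 in q2 and 20.1 in q3. Its level was thus below that of ITGAV in each condition, with ITGAV 2.61, 2.30 and 2.19 times as high. The log2 ratio of q3 to q1 was 2.87 for ITGB5, 0.90 above the median, and differed from that of ITGAV by 0.26 in size. The other β partners of ITGAV in the table were low. ITGB6, an epithelial subunit, had 0.575, 0.169 and 0.316 FPKM in q1, q2 and q3, and ITGB8, known from the activation of TGF-β, had 0.587 in q1 and 0.228 in q2.

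ITGA10 (chromosome 2 from 494342559 to 494364190) had 10.1 FPKM in q1, 8.24 in q2 and 30.9 in q3. Its lowest value was in q2, in contrast to ITGAV, and its level in q3 was 3.06-fold that in q1. Its distance from the median of all genes was -0.90 in q2 and -0.35 in q3, each against q1, neither past the fold. For q2 this depended on the processing. It was past the fold with a filter at 5 FPKM (-1.13), with the highest TSS group alone (-1.13) and centred on genes of at least 10 FPKM (-1.18). Centred on the ratio of summed FPKM it was -2.79 in q2 and -1.14 in q3. With the pseudocounts, without a filter and without centring it stayed within the fold in q2. In rank it went from percentile 94.4 in q1 to 88.6 in q2 and 91.2 in q3. ITGA10 was above ITGAV in q1, where ITGAV had 0.711 times its level, and below it in q2 and q3, where ITGAV had 1.54 and 1.42 times its level. The log2 ratio of q3 to q1 was larger for ITGAV than for ITGA10 by 1.0. This difference does not depend on how the conditions are centred.

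The collagen receptor subunits other than ITGA10 were lower in level and had larger ratios against q1. For q3 against q2 the ratio was larger for ITGA10, with log2 ratios of 1.91 beside 1.35 for ITGA1 and 1.67 for ITGA2. ITGA1 had 1.94 FPKM in q1, 5.29 in q2 and 13.5 in q3. ITGA2 had 1.90, 4.47 and 14.2. ITGA10 had 5.21 times the level of ITGA1 in q1, 1.56 times in q2 and 2.30 times in q3. The log2 ratio of q3 to q1 was 2.79 for ITGA1 and 2.90 for ITGA2, which is 0.83 and 0.94 above the median of all genes. ITGA11, a collagen receptor of mesenchymal cells, had 1.56 FPKM in q1 and 3.17 in q2, a log2 ratio of 1.03.

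ITGA1 and ITGA2 are neighbours on chromosome 3, with 42.9 kb between their loci in the table and 0 coding genes between them in RefSeq. Their levels were close in every condition, with ITGA1 at 1.02, 1.18 and 0.950 times ITGA2 in q1, q2 and q3. LAMB1 and LAMB4, neighbours too, were less close in level. They lie 29.8 kb apart on chromosome 8, in a genome build that the sources used here do not name, and LAMB1 had 1.82 times the level of LAMB4 in q1 and 5.82 times in q2.

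The laminin receptor subunits ITGA3, ITGA6 and ITGB4 were low. ITGA7, of the same group, and ITGB1, a β subunit common to many integrins, were not analysed here. ITGA6 had 0.669 FPKM in q1, 0.705 in q2 and 2.22 in q3. Its ratio of q3 to q1 had a distance of -0.23. ITGA3, a laminin receptor of epithelia, had 0.280, 0.152 and 0.266. ITGB4, the partner of ITGA6 in hemidesmosomes, had 0.0936, 0.412 and 0.707. Apart from ITGA6 in q3, these subunits stood under 1 FPKM in every condition, below the laminin chains LAMA4, LAMB2 and LAMC1.

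Among the leukocyte subunits measured ITGB2 had the highest level. ITGB2, the β subunit shared by leukocyte integrins, had 4.84 FPKM in q1, 10.2 in q2 and 31.1 in q3, 6.43-fold higher in q3 than in q1. Its log2 ratio of 2.68 lay 0.72 above the median of all genes, beside 0.65 for ITGAV. ITGAL, its α partner on lymphocytes, had only 0.411, 0.695 and 0.461, so that ITGB2 had 11.8, 14.6 and 67.5 times its level. The myeloid α partners of ITGB2, ITGAM and ITGAX, were not analysed here. ITGA4, which binds VCAM1, had 0.546, 1.58 and 1.68, and ITGA9, which binds tenascin C, had 1.78, 2.06 and 3.61. Against q1 the ratio of q3 had a distance of -0.35 for ITGA4 and -0.94 for ITGA9. ITGAE, a subunit of T cells in epithelia, is listed at 0 in q1 and q2. RPS6, a ribosomal protein gene that every cell uses, is also listed at 0 in q2, so a listed 0 can be a failed estimate.

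Among the remaining subunits, ITGA8, a receptor of nephronectin, had 2.47 FPKM in q1 and 2.41 in q2, a distance of -0.65. ITGA2B, the α subunit of platelets, had 0.418, 0.482 and 0.205. Of the 3 genes that are no subunits, ITGB1BP1, a protein that binds the tail of ITGB1, had 9.02, 9.73 and 34.2 FPKM and stood near the median for q3 against q1, at -0.04. ITGBL1, a secreted protein with repeats like those of integrin β subunits, had 8.06, 6.96 and 25, and like ITGA10 it was lowest in q2. ITGB1BP2, a muscle protein, had 0.419 in q1 and 0.196 in q2.

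**Figure D2:**
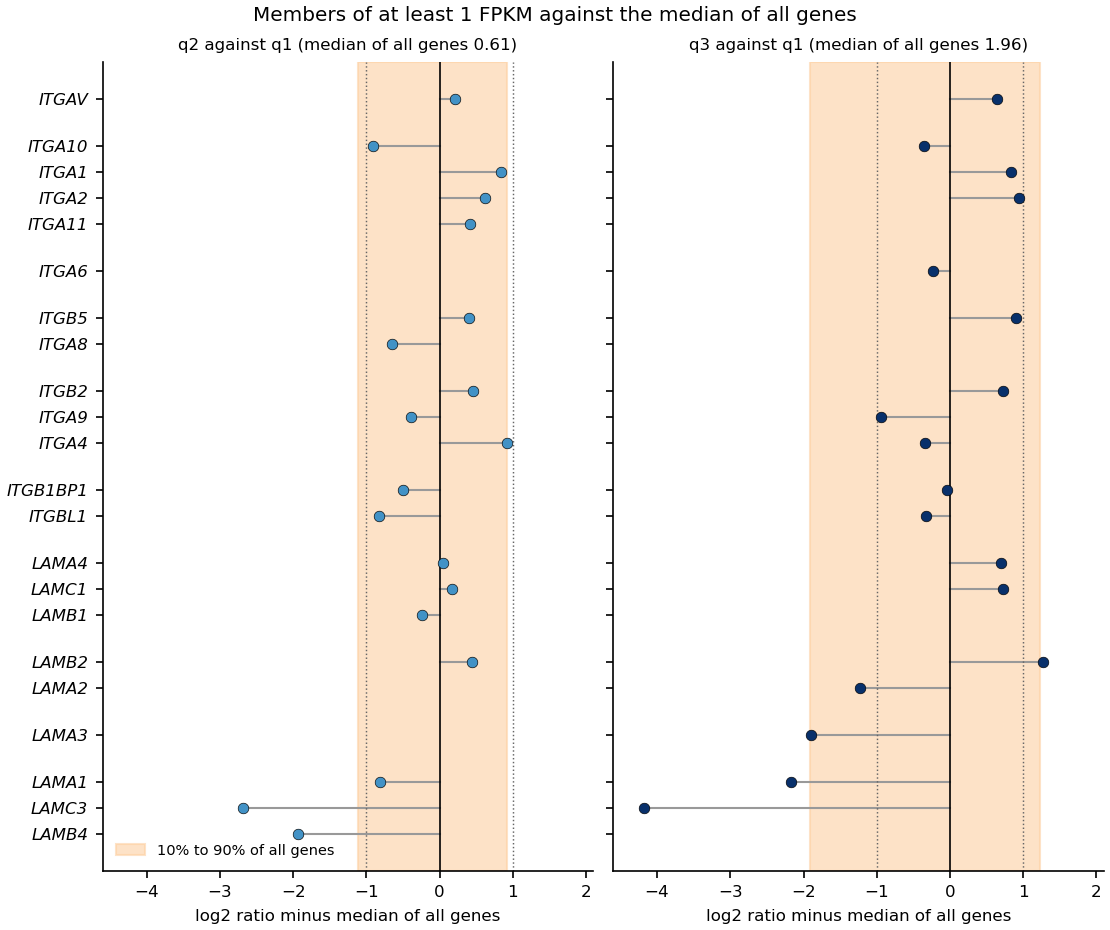
Log2 ratio of q2 to q1 (left) and of q3 to q1 (right) minus the median of all genes, for the members with a mean of at least 1 FPKM over the compared conditions. Dotted lines mark a distance of 1, the shaded band the range from the 10th to the 90th percentile of all genes, and LAMC3 lies farthest below the median in both panels, at -2.69 and -4.18.

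The laminin chains with a ratio of q3 to q1 lay on both sides of the median of all genes. LAMA4 (TSS130264, chromosome 2 from 378396845 to 378598763), an α chain of vessel laminins, had 2.97 FPKM in q1, 4.69 in q2 and 18.8 in q3. LAMC1 (TSS124761, chromosome 2 from 77960271 to 78127082), the γ chain of most laminins, had 2.47, 4.25 and 15.9. LAMB2 (chromosome 6 from 202156341 to 202180476), a β chain of vessel, muscle and nerve laminins, had 2.60, 5.38 and 24.4. Each of these chains was lowest in q1 and highest in q3, by 6.33-fold for LAMA4, 6.45-fold for LAMC1 and 9.37-fold for LAMB2. Relative to the median of all genes the log2 ratio of q3 to q1 was 0.70 higher for LAMA4, 0.72 higher for LAMC1 and 1.26 higher for LAMB2.

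The levels of LAMA4, LAMC1 and LAMB2 stayed near each other. LAMA4 had 1.20, 1.10 and 1.18 times the level of LAMC1 in q1, q2 and q3, and LAMB2 had 1.05, 1.27 and 1.53 times. LAMB1, the other common β chain, had 2.79 FPKM in q1 and 3.58 in q2. LAMB2 had 0.933 times the level of LAMB1 in q1 and 1.5 times in q2, and q3 of LAMB1 was not analysed here. LAMA5, the second α chain of vessels, was low at 0.254, 0.371 and 0.550 FPKM, and LAMA4 had 11.7, 12.7 and 34.2 times its level.

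LAMC3, a γ chain of restricted distribution, went against LAMA4, LAMB2 and LAMC1. It had 2.47 FPKM in q1, 0.582 in q2 and 0.531 in q3, so that q1 stood apart from q2 and q3. In q1 it stood level with LAMC1, at 1.0 times, while LAMC1 had 7.30 times its level in q2 and 30.0 times in q3. Its log2 ratio was -2.08 in q2 and -2.22 in q3, each against q1, at distances of -2.69 and -4.18. LAMB4, a little studied β chain, had 1.54 FPKM in q1 and 0.616 in q2, a log2 ratio of -1.32 and a distance of -1.93. Levels of this size rest on few fragments, and the depth behind them is unknown.

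LAMA1, the α chain of early embryonic basement membranes, had 2.56 FPKM in q1, 2.21 in q2 and 2.21 in q3. This sum hardly differed between conditions, and since most genes were higher in q3, its rank went from percentile 76.7 in q1 to 67.3 in q2 and 55.4 in q3. Its 5 TSS groups, each at no more than 1.10 FPKM, did not go together. TSS211774 had 0.379, 0.277 and 0.749 FPKM in q1, q2 and q3, and TSS211773 had 0.790, 1.10 and 0.488. The highest of them alone was too low for a ratio, so the level of LAMA1 is uncertain. LAMA3, the α chain of epithelial laminin, had 1.06, 0.853 and 1.11 FPKM. LAMB3, a β chain of the same laminin, was lower still at 0.410, 0.330 and 0.118. LAMA2, the α chain of muscle and Schwann cell basement membranes, had 1.04, 0.567 and 1.73. The distance of the ratio of q3 to q1 was -2.17 for LAMA1, -1.89 for LAMA3 and -1.22 for LAMA2, although LAMA2 and LAMA3 were higher in q3 than in q1 when no centring was applied, with log2 ratios of 0.74 and 0.07.

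**Figure D3:**
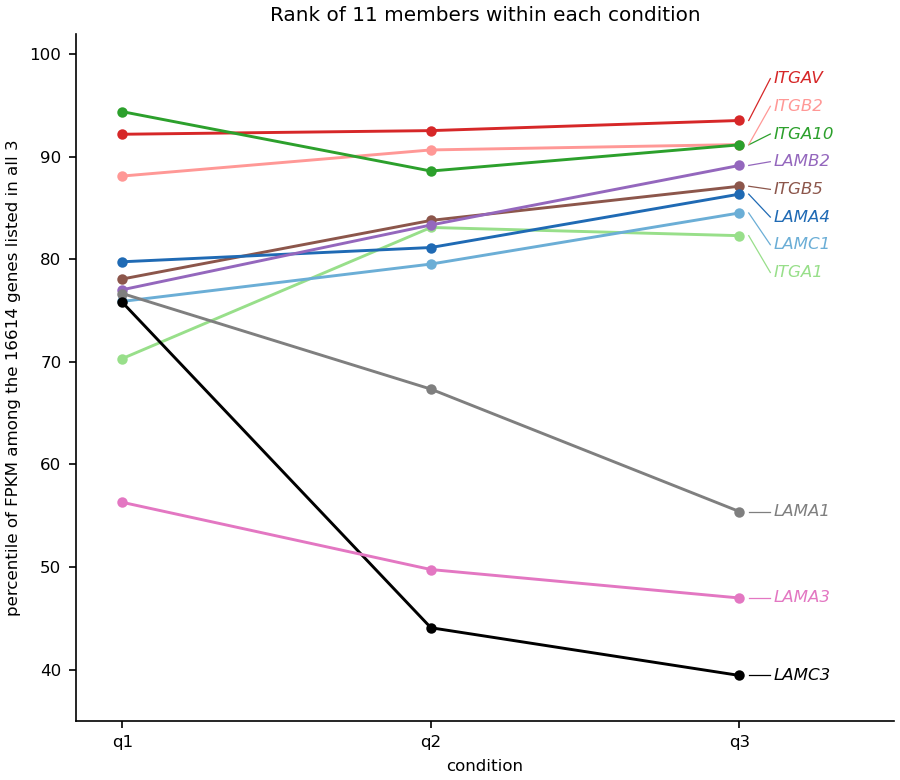
Percentile of the FPKM of 11 members among the 16614 genes listed in all conditions, by condition, 1 condition mean per point joined by lines. ITGAV stays between percentile 92.2 and 93.5, LAMB2 goes from 77.0 to 89.2, and LAMC3 goes from 75.8 to 39.4.

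Ranks within a condition do not depend on how the conditions were scaled to each other. LAMB2 went from percentile 77.0 in q1 to 83.4 in q2 and 89.2 in q3, LAMA4 from 79.8 to 81.2 and 86.4, and LAMC1 from 75.9 to 79.5 and 84.5. ITGB5 went from 78.1 to 83.8 and 87.1. ITGA1 stood at 70.3 in q1, 83.1 in q2 and 82.3 in q3. LAMC3 went from 75.8 to 44.1 and 39.4. In q1 LAMC3, LAMA1, LAMC1, LAMB2, ITGB5 and LAMA4 lay within percentiles 75.8 to 79.8, and in q3 they spread from 39.4 to 89.2.

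Over the members, the counts past the fold were near or below those of all genes. For q2 against q1, 19 of the 33 members had a mean of at least 1 FPKM, of which 0 were at least 1 higher than the median and 2 at least 1 lower (LAMB4 and LAMC3). Among all 10337 genes these shares were 8.67% higher and 12.2% lower. For q3 against q1, 18 members had such a mean, of which LAMB2 was at least 1 higher and LAMA1, LAMA2, LAMA3 and LAMC3 were at least 1 lower, beside 14.1% higher and 20.9% lower among 8837 genes. For q3 against q2, 0 of 16 members were at least 1 higher and 2, ITGA4 and LAMA1, at least 1 lower, beside 9.35% and 14.2% of 8782 genes. The median log2 ratio of the members was 0.66, 1.83 and 1.73 in these comparisons, beside 0.61, 1.96 and 1.33 for all genes. Members left out by the minimum of 1 FPKM are among the least certain, and the counts do not cover them. LAMB4 and LAMC3 stood under 1 FPKM in q2, and LAMC3 also in q3, so both met the minimum only through q1.

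From q1 to q3 the integrin subunits above the median were ITGA1, ITGA2, ITGAV, ITGB2 and ITGB5, 5 of 9, and the laminin chains above it were LAMA4, LAMB2 and LAMC1, 3 of 7. With centring on the ratio of summed FPKM in place of the median, ITGAV, ITGB2, LAMA4 and LAMC1 lay below the centre, at -0.14, -0.07, -0.09 and -0.06. ITGA10 lay above it without a filter on low values, at 0.05. From q2 to q3 all 16 members that met the minimum of 1 FPKM were higher in q3, LAMA1 by only 1.0-fold and ITGA4 by 1.06-fold. Of all genes that met it, 90.3% were higher too. ITGA6 and LAMA2 stood under 1 FPKM in q2 and met this minimum only through q3. Among the members it left out, ITGA2B, ITGAL, LAMB3 and LAMC3 were lower in q3 than in q2. ITGA3, ITGB4, ITGB6, LAMA3 and LAMA5, also left out, were higher. LAMA4 and LAMB2 were 4.01-fold and 4.53-fold higher in q3 than in q2, ITGA10 3.75-fold and ITGAV 3.45-fold, beside a median of 2.52-fold over all genes.

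**Figure D4:**
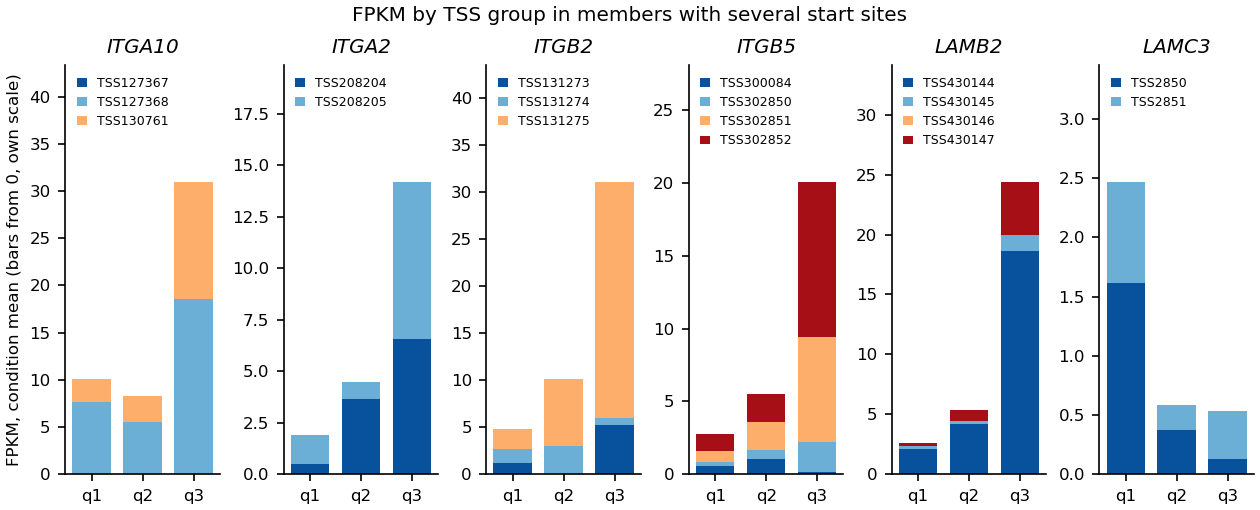
FPKM of each TSS group (stacked bars from 0, condition means, each gene on its own scale) in q1, q2 and q3 for 6 members with several start sites. TSS131275 makes up 45.5% of ITGB2 in q1 and 80.7% in q3, and TSS130761 24.8% of ITGA10 in q1 and 40.0% in q3.

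Of the 33 members, 17 have several TSS groups, and their shares differed between conditions in some. ITGA10 was read mainly from TSS127368, with 7.58 FPKM in q1, 5.50 in q2 and 18.6 in q3, besides TSS130761, with 2.51, 2.74 and 12.4. The lower value of ITGA10 in q2 thus lay mainly in TSS127368, while TSS130761 made up 24.8% of the gene in q1, 33.2% in q2 and 40.0% in q3. Its other group, TSS127367, stood at 0.0283 in q1 and near 0 in q2 and q3.

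In ITGB2 the group TSS131275 went from 2.20 FPKM in q1 to 7.19 in q2 and 25.1 in q3. TSS131274 had 1.46, 2.97 and 0.751, and TSS131273 had 1.18, 0.00046 and 5.26. The level of ITGB2 in q3 was thus carried mainly by TSS131275, at 80.7%, with 16.9% from TSS131273. In ITGB5 the 3 larger groups in q3, TSS302850, TSS302851 and TSS302852, had log2 ratios of q3 to q1 of 2.93, 3.23 and 3.21, whereas TSS300084 had 0.558 FPKM in q1 and 0.128 in q3. The 2 groups of ITGA2 exchanged their order, with TSS208204 at 26.8%, 81.4% and 46.2% of the gene in q1, q2 and q3. In LAMB2 TSS430144 made up 82.0%, 77.8% and 76.5% of the gene and TSS430147 10.9%, 17.2% and 18.2%. For LAMC3 TSS2850 went from 1.61 to 0.369 and 0.128 and TSS2851 from 0.856 to 0.213 and 0.403, so both were lower in q2 and q3 than in q1. How the reads were divided between start sites of a gene is an estimate of Cufflinks, and no error is given for it.

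**Figure D5:**
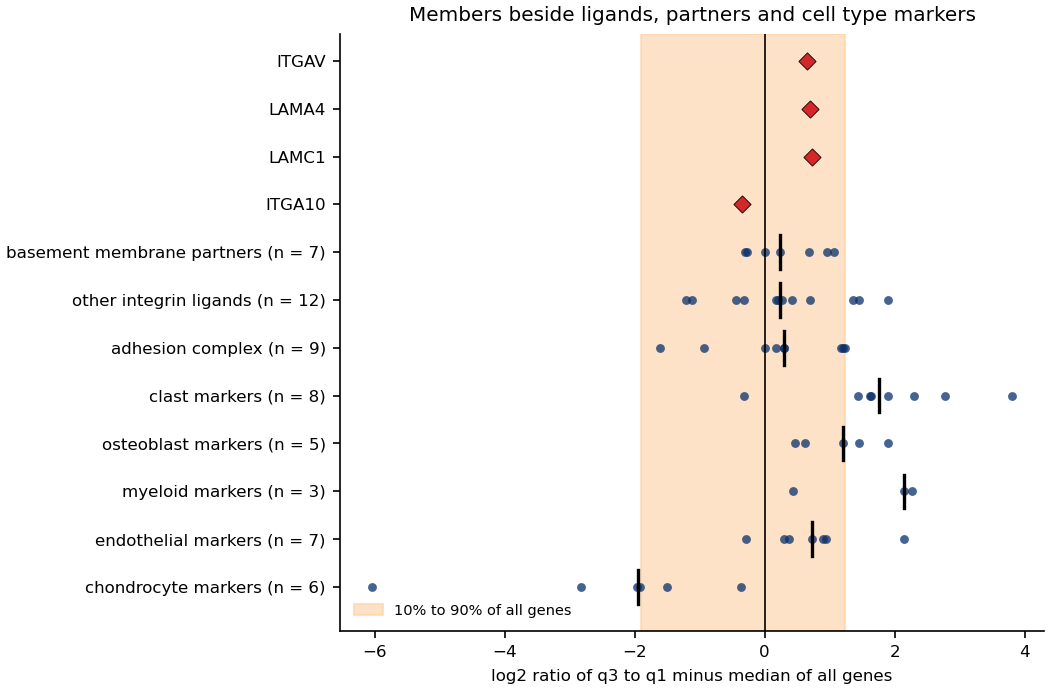
Log2 ratio of q3 to q1 minus the median of all genes for ITGAV, LAMA4, LAMC1 and ITGA10 (diamonds) and for genes of partner and marker lists (points, with a bar at the median of each list). ITGAV at 0.65 lies below the median of the clast markers at 1.77, and ITGA10 at -0.35 lies above that of the chondrocyte markers at -1.945.

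ITGAV had a ratio close to those of LAMA4 and LAMC1, and ITGA10 a smaller one. LAMA5 was too low for a ratio, LAMB1 has no q3 value, and LAMB2 had a larger ratio than ITGAV. The log2 ratio of q3 to q1 of ITGAV differed from that of LAMA4 by 0.05 in size and from that of LAMC1 by 0.08, while LAMA4 and LAMC1 stood 1.05 and 1.08 above ITGA10. From q1 to q2 the same differences to ITGA10 were 1.12 for ITGAV, 0.95 for LAMA4 and 1.08 for LAMC1. From q2 to q3 they were -0.12, 0.10 and 0.00. In these means the distance of ITGA10 from them thus lay between q1 and q2, and whether those steps differ was not tested.

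Markers of the cell types that carry these members gave a wider spread. Of 9 clast markers, 8 have q3 values, and these summed to 1243, 4279 and 20203 FPKM in q1, q2 and q3. Their median ratio of q3 to q1 lay 1.77 above that of all genes, with 7 of the 8 above it, and CTSK and ACP5, a protease and an acid phosphatase of clasts, were 2.29 and 1.62 above it. ITGAV, at 0.65, lay below both. CALCR, the calcitonin receptor of clasts, is listed at 0 in q1 and q2. ITGAV is made by many other cells, and the part of clasts in its level was not tested.

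Of 10 chondrocyte markers 6 have q3 values, and these summed to 675 FPKM in q1, 309 in q2 and 862 in q3. Their median distance for q3 against q1 was -1.945, and 0 of the 6 were above the median of all genes. COL9A2 and COL11A2, collagen chains of cartilage, were at -1.92 and -0.37, the latter near ITGA10 at -0.35. For q2 against q1 the 8 markers compared had a median distance of -2.02, beside -0.90 for ITGA10. COL2A1, the main collagen of cartilage, is listed at 0 in q1 and q2, while COL9A2 had 363, 120 and 373 FPKM in q1, q2 and q3. The part of chondrocyte numbers in the level of ITGA10 was not tested.

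Endothelial markers summed to 22.2 FPKM in q1, 33.3 in q2 and 141 in q3 over the 7 of 10 with q3 values. Their median ratio of q3 to q1 lay 0.73 above that of all genes, with 6 of 7 above it, beside 0.70 for LAMA4 and 0.72 for LAMC1. ESAM and PECAM1, adhesion proteins of endothelium, were 0.95 and 0.37 above it. The 7 markers ranged from -0.28 for KDR to 2.14 for TIE1, and ITGB2, a leukocyte subunit, also lay at 0.72. From q1 to q2 the endothelial median lay 0.05 above that of all genes, beside 0.05 for LAMA4 and 0.17 for LAMC1. Whether these laminin chains came from endothelium was not tested.

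Myeloid markers summed to 15.9, 41.0 and 116 FPKM over 4 genes, and TYROBP and SPI1, a signalling adaptor and a transcription factor of myeloid cells, were 0.43 and 2.14 above the median ratio of q3 to q1, beside 0.72 for ITGB2. All 3 myeloid markers with such a ratio lay above that median. CD14, without a q3 value, had 5.17 FPKM in q1 and 2.87 in q2, and CD68 had 0.0886, 0.932 and 0.140. Osteoblast markers summed to 1235, 4693 and 9548 over 5 genes. BGLAP and COL1A1, which encode osteocalcin and a chain of type I collagen, were 1.21 and 0.47 above the median ratio of q3 to q1. Muscle markers were low, with ACTA1 at 1.12, 0.995 and 2.64 FPKM and DES at 0.448, 0.528 and 1.62. CKM is listed at 0 in q1 and q2 and has no q3 value. Among Schwann cell markers SOX10 and ERBB3 are listed at 0 in q1 and q2, without q3 values. MBP, which other cells also make, had 3.41, 3.75 and 8.29. Of the epithelial markers KRT5 is listed at 0 in q1 and q2, and EPCAM had 1.65 FPKM in q1 and is listed at 0 in q2. Neither has a q3 value, and KRT18 had 0.228, 1.18 and 1.10 in q1, q2 and q3. The part of these cells in the levels of the epithelial, muscle and nerve laminins was not tested.

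The partners of these receptors and chains lay on both sides of the median. Of 9 genes of the basement membrane, 7 had a ratio of q3 to q1, and 5 of these were above the median of all genes, with a list median of 0.24 above it. NID1, which links laminin to collagen IV, had 3.27, 8.69 and 26.7 FPKM in q1, q2 and q3, a distance of 1.06. The collagen IV chains COL4A1 and COL4A2 followed at 0.95 and 0.68, and they had 13.8, 24.5 and 104 and 23.0, 30.9 and 144 FPKM. NID2, COL15A1 and HSPG2, the last a heparan sulphate proteoglycan that cartilage also makes, had the lowest distances, -0.30, -0.27 and 0.00476. AGRN is listed at 0 in q1 and q2.

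Of 16 other ligands of integrins, 12 had a ratio of q3 to q1, 8 of them on the upper side of the median, and the list's median distance was 0.24. The highest were IBSP, SPP1 and TGFBI, ligands of receptors with ITGAV, at distances of 1.90, 1.45 and 1.37. SPP1, osteopontin, had 339 FPKM in q1, 1501 in q2 and 3610 in q3. IBSP, bone sialoprotein, had 123, 519 and 1793. VCAM1, THBS1 and ICAM2 were lowest, at -1.21, -1.11 and -0.45. VTN, vitronectin, had 0.0238 FPKM in q1 and 0.0122 in q3 and is listed at 0 in q2.

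Of 17 genes of the complex that ties integrins to actin, 9 had a ratio of q3 to q1, with 7 on the upper side, and the list's median distance was 0.29. CRK, PXN and ILK, adaptors and a pseudokinase of this complex, stood 1.23, 1.20 and 1.17 above the median of all genes, and ILK had 15.3, 26.6 and 134 FPKM. PTK2, the focal adhesion kinase, had 5.27, 4.21 and 6.71 FPKM, a distance of -1.62. FERMT1, a kindlin of epithelia, lay at -0.93, and PARVA, which binds ILK, at 0.00205.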

How the data were processed

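Per the labels, reads were aligned with TopHat and handled with Cufflinks and Cuffdiff, in what the paper's methods call the Tuxedo protocol. Neither versions nor the genome build, annotation, strand setting or scaling of libraries could be taken from the sources used here, so they are not given. The authors deposited FPKM as 1 mean per TSS group and condition. The table ends after 65535 rows, with q3 listed for 28026 of 37421 TSS groups (74.9%) whatever their size, and the deposited fold changes, test statistics, p-values and q-values of the authors' own comparisons were not used. A second, shorter table repeats rows of the first and was not used. Depth per library is unknown.

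FPKM was summed over the TSS groups of a symbol. Log2 ratios used no pseudocount, both means above 0 and a mean of at least 1 FPKM, and were centred on the median of all genes. The limma fit foreseen for values per library was not possible. Of 22724 genes, 8432 are listed by Ensembl ID only and were left unnamed.

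Every member is named except where an item is not reported here. Of each partner list the 3 highest and 3 lowest by the ratio of q3 to q1 and of each marker list the 2 highest in mean FPKM are named. VTN, AGRN, RPS6, CD14, CD68, KDR, TIE1 and markers listed at 0 were added after their values were seen. Members and lists were chosen with earlier results of these data known. Alternatives covered pseudocounts, filters, centring, the fold and the highest TSS group alone. Computation was in Python 3.11.15 with numpy 2.4.6 and pandas 2.3.3, and plots in matplotlib 3.10.9.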

Additional observations from a re-analysis of the deposited data

How the results depend on the processing

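No paired analysis was possible because the table holds 1 mean per condition and no value per library, and for the same reason no library could be left out. A shift of 1.5 times or more counts as moved. Of 422 values of single members and pairs under alternatives, 49 turned sign: 14 without centring, 14 on summed FPKM, 6 with a pseudocount, 5 without a filter, 4 centred on genes of at least 10 FPKM, 4 with the highest TSS group alone and 2 with a filter at 5 FPKM. Of members past the fold 4 turned sign, all without centring: for q3 against q1 LAMA2 at 0.74 and LAMA3 at 0.0693, for q3 against q2 ITGA4 at 0.0840 and LAMA1 at 0.00101. The difference of ITGAV and ITGA10 cannot depend on filters or centring, and it moved less than this with the pseudocounts and with the highest TSS group alone.

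The median distance of the members from all genes was 0.05 (q2 to q1), -0.14 (q3 to q1) and 0.39 (q3 to q2). It became -0.73 for q2 against q1 with a filter at 5 FPKM, and 0.47 for q3 against q1 with the highest TSS group alone. Without centring it was 0.66, 1.83 and 1.73, and on the ratio of summed FPKM, which a few abundant genes set, it was -1.84 (q2 to q1) and -0.92 (q3 to q1).

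Counts past the fold are small and moved with most choices. For q2 against q1, where 0 were higher and 2 lower, there were 2 higher and 8 lower without a filter, 2 and 1 with the highest TSS group alone, 7 higher without centring, 5 lower centred on genes of at least 10 FPKM, 18 lower on summed FPKM, 1 lower among genes with q3, 3 and 6 at a fold of 1.5 and 1 lower at a distance of 2. For q3 against q1, where 1 was higher and 4 lower, there were 9 and 9 without a filter, 0 and 0 at 5 FPKM, 4 higher with the highest TSS group, 14 and 1 without centring, 0 higher on genes of at least 10 FPKM, 0 and 9 on summed FPKM, 8 higher at a fold of 1.5, and 0 and 2 at a distance of 2. For q3 against q2, where 0 were higher and 2 lower, there were 1 and 7 without a filter, 0 lower at 5 FPKM, 1 and 1 with the highest TSS group, 13 and 0 without centring, 5 and 0 on summed FPKM, 2 higher at a fold of 1.5 and 0 lower at a distance of 2. For q2 against q1 the members behind the counts changed too. The 1 lower with the highest TSS group alone was ITGA10, and the 2 lower with a filter at 5 FPKM were ITGA10 and ITGBL1. LAMB4 and LAMC3 did not enter under either setting. Filters alter which genes enter and with them the centre. The highest TSS group also alters the ratios themselves, with ITGA2 for q2 against q1 at 2.17 in place of 0.63. The other centrings alter only the centre and the other folds only the threshold. The cause was not tested further.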
